A study of Arabidopsis thaliana with 8 samples.

Results

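The class II homeodomain-leucine zipper (HD-ZIP) genes of *Arabidopsis thaliana* were followed through 1 and 4 hours of simulated shade. All 10 genes of the class were taken by their locus identifiers from a table of 33602 genes, by a rule that sets no condition on their measured values, and all 10 had a value in every library. They were considered as 5 genes known for their response to light quality, *ATHB2* (AT4G16780), *HAT1* (AT4G17460), *HAT2* (AT5G47370), *HAT3* (AT3G60390) and *ATHB4* (AT2G44910), and 5 others, *HAT9* (AT2G22800), *HAT14* (AT5G06710), *HAT22* (AT4G37790), *ATHB17* (AT2G01430) and *ATHB18* (AT1G70920). Plants were wild type (Col), about 2 weeks old and grown in long days. Shade plants received white light supplemented with far-red to a low red to far-red ratio for 1 or 4 hours, and sun plants received white light supplemented with far-red to a higher ratio, in the same range of photosynthetic light. Treatment began 4 hours after lights on, so tissue was taken 5 or 8 hours after lights on. The tissue was leaves with the shoot apex, from which cotyledons, hypocotyls and roots had been removed. Each of the 4 groups (1 h shade, 1 h sun, 4 h shade, 4 h sun) had 2 replicates of 5 pooled plants, which gave 8 mRNA libraries.

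HD-ZIP proteins are found only in plants and join a DNA-binding homeodomain to a leucine zipper through which they dimerise. Class II proteins mostly act as repressors, recruit TOPLESS (TPL) type co-repressors through a short motif near their amino terminus, and bind a near-palindromic site. The class is known for shade avoidance: when plants sense neighbours as a fall in the red to far-red ratio, phytochrome is inactivated, PHYTOCHROME INTERACTING FACTORs (PIFs) accumulate, and *ATHB2* transcript rises within minutes. *HAT3* and *ATHB4* also act with class III HD-ZIP genes in setting the upper and lower sides of leaves, so the class sits where light signalling meets leaf and apex development.

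Levels are given as CPM, which is a gene's read count scaled to a size set for its library. The deposited values of a library summed to between 986042 and 1015651 CPM, so this size was near its reads on genes but not equal to them. The 8 libraries held 1154019 to 4680620 reads on genes, and the smallest was replicate 1 of 4 h shade, with the next smallest at 3449191. In that library 1 read equalled 0.856 CPM, against 0.216 to 0.291 CPM in the others. Replicates of a group correlated across genes with Spearman's rho of 0.961 to 0.975. Leaf markers were abundant in every library (*RBCS1A* 16048 to 26147 CPM). The apex marker *STM* was at 3.43 to 9.01 CPM and *KNAT1* at 6.71 to 16.3 CPM. The apex marker *WUS*, in contrast, had no read in any of the 8 libraries, and *CLV3* had none in 5. The root marker *IRT1* was at 0 in all 8, and *PHT1;1* and *COBL9* were at most at 0.837 CPM. Of the flower markers *AP1* was at 0 in all 8, while *LFY* reached 1.16 CPM, *AG* 0.996 CPM and *AP3* 0.237 CPM. *PYK10*, listed among the root markers but also known from other seedling tissue, was at 169 to 314 CPM. The summed level of the 5 apex markers was 14.1 to 21.0 CPM in 1 h shade and 15.9 to 18.4 CPM in 1 h sun, and 20.6 to 20.9 CPM in 4 h shade and 15.2 to 19.8 CPM in 4 h sun. In whole tissue, fewer cells of a type and less RNA per cell cannot be told apart.

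After 1 hour of shade, *HAT2* and *ATHB2* transcripts were several times higher than in sun, and these were the members past the test. *HAT1*, *ATHB4* and *ATHB17* were also higher in both shade libraries but missed the threshold over all genes, and *HAT3*, *HAT22*, *HAT14*, *HAT9* and *ATHB18* lay closer to their sun level. After 4 hours the *HAT2* difference was much smaller and *ATHB2* remained higher in both shade libraries, and no member passed. limma was fitted to log2(CPM + 1) across the 4 groups together, with Benjamini-Hochberg adjustment over the 19280 genes that reached 1 CPM in at least 2 libraries, and a gene was called at an adjusted p under 0.05. All 10 members reached this level. *ATHB17* did so only in the 1 h shade libraries, so its presence among the tested genes depends on the group in which it was high. *ATHB18* did so only in replicate 1 of 1 h shade and replicate 2 of 1 h sun.

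**Figure D1:**
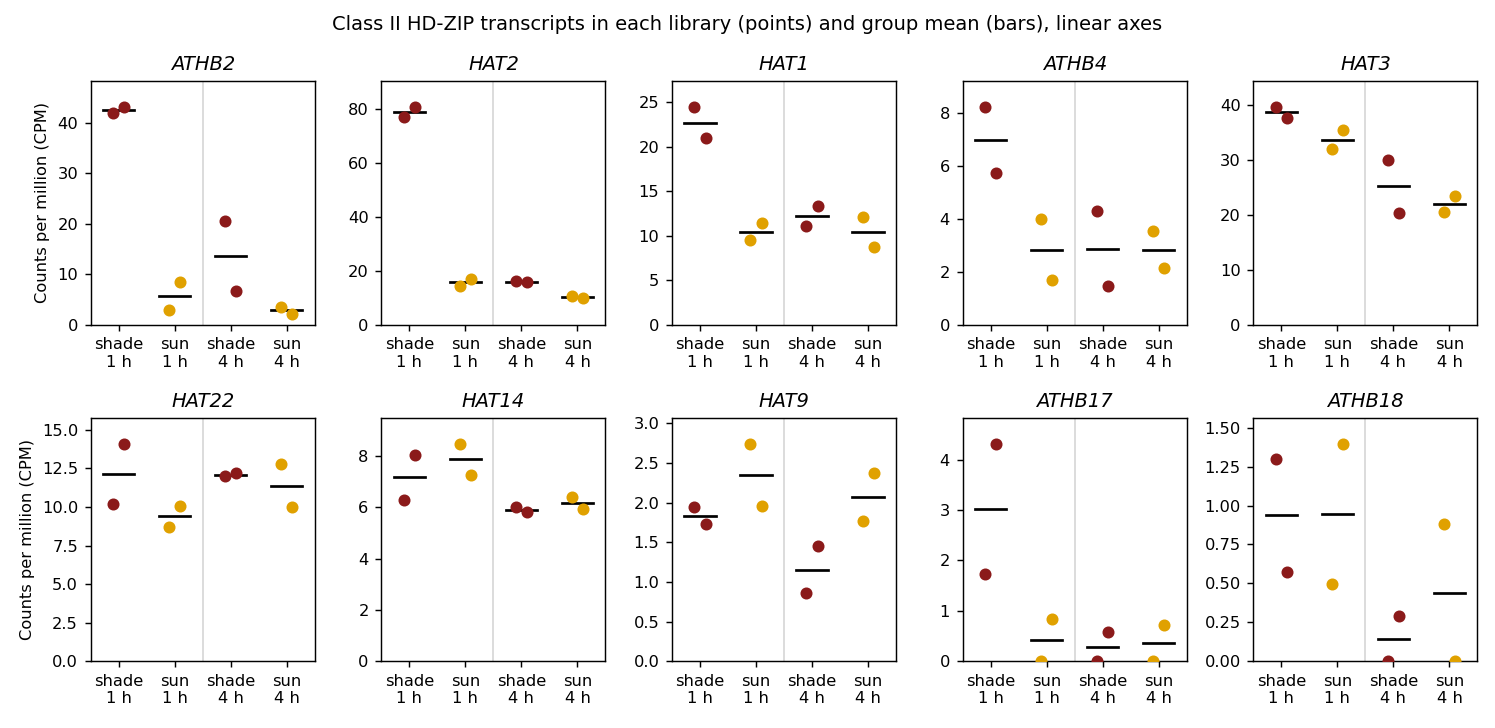
Level of each class II HD-ZIP gene in CPM (linear vertical axes that start at 0, with a different scale in each panel) in the 8 libraries. Points are the 2 replicates of each group and bars are group means. *ATHB2* and *HAT2* were far higher in 1 h shade (mean 42.5 and 79.0 CPM) than in 1 h sun (mean 5.68 and 15.7 CPM).

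*ATHB2*, the founding shade-induced member whose overexpression elongates seedling stems, lies on chromosome 4 at chr4:9449114-9450905 on the plus strand (TAIR10.1) and has 4 exons. It was at 42.0 and 43.1 CPM in 1 h shade, against 2.99 and 8.37 CPM in 1 h sun. The groups were therefore far apart, and stood on 194 and 150 reads against 12 and 30. The ratio of means was 7.49, and the log2 fold change was 2.83 (standard error 0.47, 95% interval 1.82 to 3.84, limma adjusted p = 0.0145). By unadjusted p it was gene 51 of the 19280. The call was lost without replicate 1 of 1 h shade (adjusted p = 0.181), without replicate 2 of 1 h shade (0.258), without replicate 1 of 1 h sun (0.289) and with no filter on low genes (0.125), while the log2 fold change stayed between 2.20 and 3.45 over 17 alternatives.

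At 4 hours *ATHB2* was at 20.6 and 6.68 CPM in shade, against 3.53 and 2.14 CPM in sun. The groups did not overlap, but the shade replicates differed from each other more than in any other group. The higher one was the smallest library, where 24 reads gave a 95% counting interval of 13.2 to 30.6 CPM, against 4.24 to 10.03 CPM for the 23 reads of the other. The ratio of means was 4.81 and the log2 fold change 1.77 (standard error 0.47, 95% interval 0.76 to 2.78, limma adjusted p = 0.242). This value rested on which shade library was kept: it was 2.52 without replicate 2 of 4 h shade, where the adjusted p was 0.0039, and the lowest value over the libraries left out was 1.03. The response at 4 hours minus that at 1 hour was -1.06 (95% interval -2.49 to 0.37, adjusted p = 0.911), so a difference between the times was not shown for *ATHB2*.

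*HAT2*, an auxin-inducible member on chromosome 5 at chr5:19216271-19218007 on the minus strand, had the firmest response. It was at 77.2 and 80.8 CPM in 1 h shade, against 14.4 and 17.0 CPM in 1 h sun. The shade replicates were close to each other and far above both sun replicates, on 357 and 281 reads against 58 and 61. The ratio of means was 5.02 and the log2 fold change 2.26 (standard error 0.20, 95% interval 1.82 to 2.70, limma adjusted p = 0.000138), and by unadjusted p it was gene 5 of all tested. It was called under each of the 17 alternatives run, with an adjusted p of at most 0.0113.

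At 4 hours *HAT2* was at 16.3 and 15.7 CPM in shade, against 10.6 and 9.73 CPM in sun. Shade and sun libraries again did not overlap, but the shade level was now that of 1 h sun. The ratio of means was 1.57 and the log2 fold change 0.61 (standard error 0.20, 95% interval 0.17 to 1.05, limma adjusted p = 0.411). The 4 hour response minus the 1 hour response was -1.65 (standard error 0.29, 95% interval -2.28 to -1.03, unadjusted p = 6.2e-05, adjusted p = 0.120), which placed it at rank 10 of all tested genes and past no threshold. It passed without replicate 1 of 4 h shade (adjusted p = 0.0341) and without replicate 2 of 4 h shade (0.0174), with values of -1.68 and -1.63. Over the 16 alternatives the difference was between -1.77 and -1.54, and the adjusted p between 0.0174 and 1.00.

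*HAT1*, closest to *HAT2* in sequence and known as a target of brassinosteroid signalling, lies at chr4:9739518-9741234 on the plus strand. It was at 24.4 and 21.0 CPM in 1 h shade, against 9.46 and 11.4 CPM in 1 h sun. The groups did not overlap, with a ratio of means of 2.17 and a log2 fold change of 1.05 (standard error 0.26, 95% interval 0.48 to 1.62). Its unadjusted p was 0.00146 and its limma adjusted p 0.161, and over 17 alternatives the adjusted p was between 0.0538 and 0.808, so it was called in none. At 4 hours *HAT1* was at 11.1 and 13.4 CPM in shade, against 12.1 and 8.78 CPM in sun, and the groups overlapped (log2 fold change 0.22, 95% interval -0.35 to 0.79).

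*ATHB4* (chr2:18517656-18519731, minus strand) and *HAT3* (chr3:22320580-22322661, minus strand) are a pair with overlapping roles in leaf polarity. Neither was called at 1 hour, and their responses were not tested against each other. *ATHB4* was at 8.22 and 5.75 CPM in 1 h shade, against 3.98 and 1.67 CPM in 1 h sun. Its shade libraries lay above its sun libraries, with a ratio of means of 2.47 and a log2 fold change of 1.11 (95% interval 0.11 to 2.12, limma adjusted p = 0.679), on 58 reads in shade and 22 in sun. *HAT3* was at 39.6 and 37.6 CPM in 1 h shade, against 31.9 and 35.4 CPM in 1 h sun, a ratio of means of 1.15. Although these libraries did not overlap either, the log2 fold change was only 0.19 (95% interval -0.26 to 0.65), with an upper bound of 0.65 on the log2 scale. At 4 hours the *HAT3* libraries overlapped, at 30.0 and 20.3 CPM in shade and 20.5 and 23.5 CPM in sun. The *ATHB4* libraries overlapped too, at 4.28 and 1.45 CPM in shade and 3.53 and 2.14 CPM in sun, where the shade values rested on 5 reads each.

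Of the other 5 genes, *ATHB17* moved most at 1 hour. It had 1.73 and 4.31 CPM in 1 h shade, against 0 and 0.837 CPM in 1 h sun, and at 4 hours 0 and 0.581 CPM in shade, against 0 and 0.712 CPM in sun. The gene was thus detected on more than 3 reads only in the 1 h shade libraries, with 8 and 15 reads. Reads pooled within groups gave a ratio of 7.19 at 1 hour with an exact counting interval of 2.17 to 37.4, from 23 reads against 3. This interval leaves out the spread between replicates, and the limma adjusted p was 0.561. With 0 to 3 reads in each 4 hour library, no fold is given there.

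*HAT22*, which has been tied to drought and abscisic acid, was at 10.2 and 14.1 CPM in 1 h shade, against 8.72 and 10.05 CPM in 1 h sun. The groups just failed to overlap, and the log2 fold change of 0.32 had an interval that spanned 0 (95% interval -0.27 to 0.92). *HAT14* was at 6.27 and 8.05 CPM in 1 h shade, against 8.47 and 7.26 CPM in 1 h sun, which overlap. *HAT9* was lower in both shade libraries at both times, a pattern whose share among all tested genes was not counted. At 1 hour it had 1.947 and 1.724 CPM in shade against 2.740 and 1.954 CPM in sun. The nearest of these lay apart by less than the CPM of 1 read. At 4 hours *HAT9* had 0.856 and 1.45 CPM in shade against 1.76 and 2.37 CPM in sun. These values rested on 1 to 11 reads, and the log2 fold changes of -0.23 and -0.52 had intervals of -1.12 to 0.66 and -1.41 to 0.37. *ATHB18* had at most 6 reads in a library, at 1.298 and 0.575 CPM in 1 h shade against 0.498 and 1.40 CPM in 1 h sun, and a change could not be detected at this depth.

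**Figure D2:**
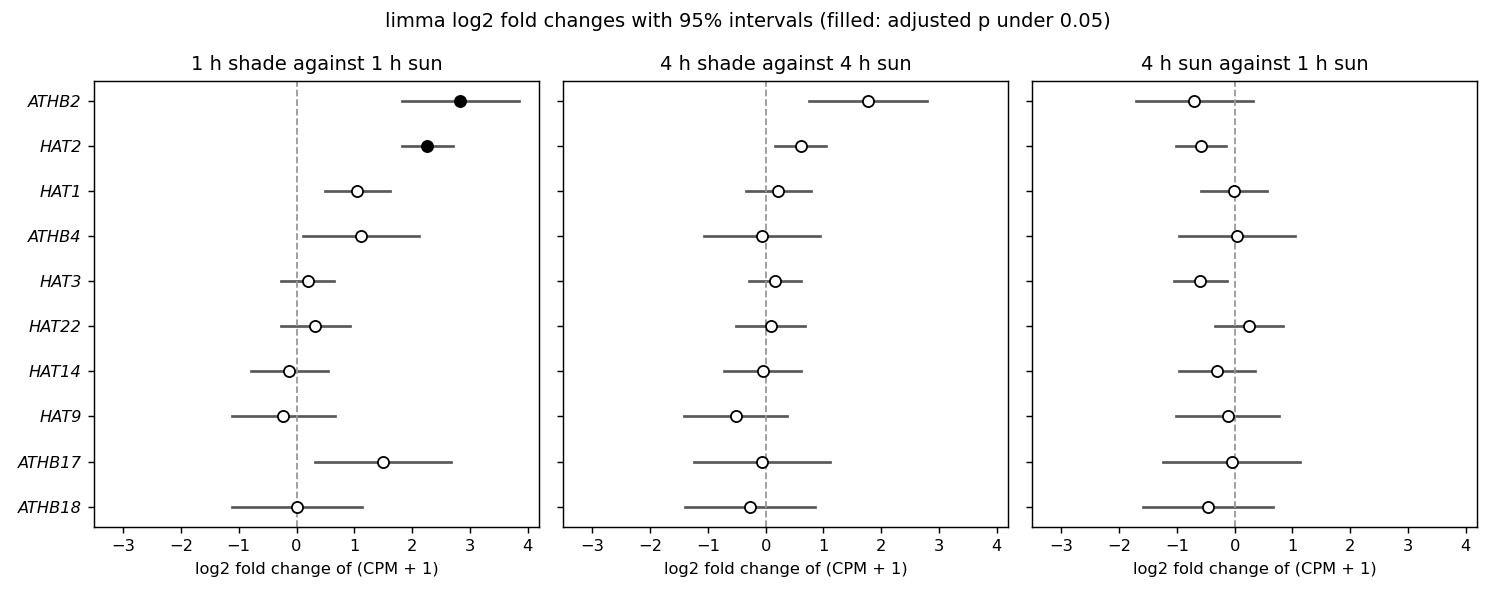
limma log2 fold changes of (CPM + 1) with 95% intervals for the 10 members, in 1 h shade against 1 h sun (left), 4 h shade against 4 h sun (middle) and 4 h sun against 1 h sun (right). Filled points passed an adjusted p of 0.05, which holds for *ATHB2* (2.83) and *HAT2* (2.26) at 1 hour and for no member in the other panels.

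Across the class, 2 of 10 members were called at 1 hour, both higher in shade, where 0.472% of all tested genes were called in either direction. An unadjusted p under 0.05 was reached by 5 members at 1 hour, among them *ATHB17*, which was tested only because of its 1 h shade libraries, and by 6.73% of all tested genes. Both shade libraries lay above both sun libraries for 7 of 10 members, *ATHB17* again among them, a pattern that 19.5% of all tested genes showed. The median log2 fold change was 0.69 over the 10 members, which is raised by the inclusion of *ATHB17*, and -0.0002 over all tested genes. It was 1.11 over the 5 light-quality genes, all with positive values, against 49.9% of all tested genes with a positive value. These 5 were grouped for a response to light quality that was already known, so this split is a description. Over the 5 others the median was 0.006, with values from -0.23 to 1.49 (*ATHB17*). At 4 hours 0 of 10 members were called by limma, edgeR or DESeq2, where limma called 0.119% of all genes, and 2 members (*ATHB2* and *HAT2*) had an unadjusted p under 0.05, as had 8.62% of all tested genes. For the same 2 members the shade libraries lay wholly above the sun libraries, a share that is close to the 16.9% seen among all tested genes. The median was 0.02 over the 10 members, against -0.03 over all tested genes.

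The interaction, in which the 1 hour response is taken from the 4 hour response, called 0 members by limma, edgeR or DESeq2 and 0.0104% of all genes, and *HAT2* and *HAT1* had an unadjusted p under 0.05, as had 5.51% of all tested genes. For the mean of both responses, which sets 4 shade libraries against 4 sun libraries, 2 members were called, against 0.628% of all genes. *HAT2* averaged a log2 fold change of 1.43 (standard error 0.14, limma adjusted p = 0.000271) and *ATHB2* one of 2.30 (standard error 0.33, adjusted p = 0.0036). The *ATHB2* call ended just above the threshold without replicate 1 of 1 h shade (0.0516), without replicate 2 of 1 h shade (0.0512) and with no filter (0.0504). The *HAT2* call held in all 16 alternatives.

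**Figure D3:**
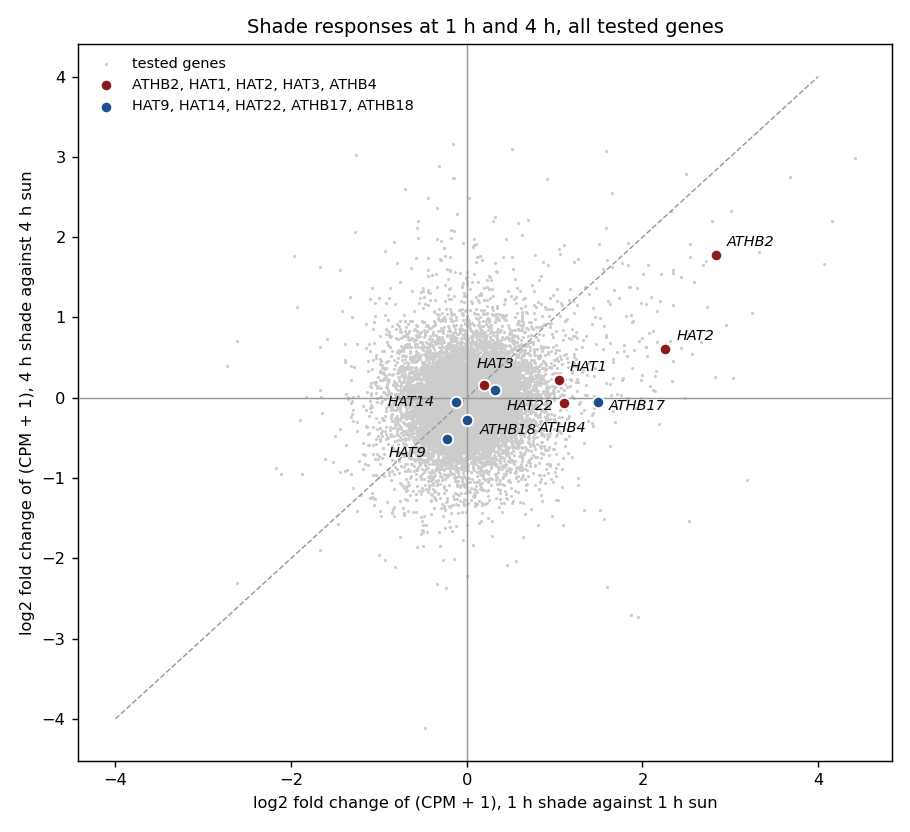
log2 fold change of (CPM + 1) at 4 hours (vertical) against that at 1 hour (horizontal) for 19280 tested genes (grey) and the 10 members (red for *ATHB2*, *HAT1*, *HAT2*, *HAT3* and *ATHB4*, blue for the others). The dashed line marks equal responses. *ATHB2* (2.83 at 1 hour and 1.77 at 4 hours) and *HAT2* (2.26 and 0.61) stand to the right of the main cloud and below the line.

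Sun plants at 8 hours after lights on were set against sun plants at 5 hours, which asks whether the members change with the time of harvest alone. No member was called by limma, edgeR or DESeq2, while limma called 3.58% of all genes, 414 of 691 higher at 4 h (59.9%), a share that became 46.3% (301 of 650) after median ratio rescaling. *HAT2* was at 10.6 and 9.73 CPM in 4 h sun, against 14.4 and 17.0 CPM in 1 h sun (log2 fold change -0.58, 95% interval -1.02 to -0.14, limma adjusted p = 0.146). *HAT3* was at 20.5 and 23.5 CPM in 4 h sun, against 31.9 and 35.4 CPM in 1 h sun (log2 fold change -0.59, 95% interval -1.05 to -0.14, adjusted p = 0.153). These were the members with an unadjusted p under 0.05, 2 of 10, which is near the 17.6% of all tested genes. *HAT3* passed the threshold in the model of the 4 sun libraries alone (adjusted p = 0.0406) and without replicate 1 or replicate 2 of 4 h shade (0.0425 and 0.0396). Both 4 h sun libraries were below both 1 h sun libraries for 3 members, *HAT2*, *HAT3* and *HAT14*, against 22.5% of all tested genes. *ATHB2* was at 3.53 and 2.14 CPM in 4 h sun, against 2.99 and 8.37 CPM in 1 h sun, and overlapped.

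To compare members with each other, CPM was divided by the spliced length of the annotated transcript in kilobases (1018 to 1639 bases in the TAIR10.1 annotation of RefSeq). In 1 h shade *HAT2* had the highest level, at 54.3 and 56.8 CPM per kb, then *ATHB2* at 31.5 and 32.3, *HAT3* at 27.4 and 26.0 and *HAT1* at 16.9 and 14.5 CPM per kb, and no neighbours in this order overlapped. In 1 h sun *HAT3* led at 22.0 and 24.5 CPM per kb, followed by *HAT2* at 10.2 and 12.0, and *ATHB2* stood sixth at 2.24 and 6.28 CPM per kb. *HAT1* and *HAT22*, at ranks 3 and 4, overlapped there, as did *HAT14*, *ATHB2*, *ATHB4* and *HAT9*, at ranks 5 to 8, each with the next. At 4 hours *HAT3* was again first by group mean, at 20.7 and 14.1 CPM per kb in shade and 14.2 and 16.2 in sun. In shade its range overlapped that of *ATHB2*, which reached 15.4 CPM per kb in replicate 1. In 4 h shade *HAT2*, *ATHB2*, *HAT1* and *HAT22* also overlapped each with the next. *HAT9*, *ATHB17* and *ATHB18* stayed under 2.1 CPM per kb in every library, apart from 4.23 for *ATHB17* in replicate 2 of 1 h shade.

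The order of members thus differed between light conditions. *HAT2* made up 35.9% and 36.7% of the summed CPM per kb of the class in the 1 h shade libraries, against 17.6% and 17.9% in 1 h sun. *ATHB2* made up 20.8% and 20.9% in 1 h shade, against 3.89% and 9.40% in 1 h sun. *HAT3* had a share of 16.8% to 18.1% in 1 h shade and 36.6% to 38.2% in 1 h sun, on a level that differed little. The sum itself was 151 and 155 CPM per kb in 1 h shade, against 57.6 and 66.9 in 1 h sun, and 71.0 and 54.4 in 4 h shade, against 50.1 and 45.4 in 4 h sun. These sums are a description and were not tested.

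**Figure D4:**
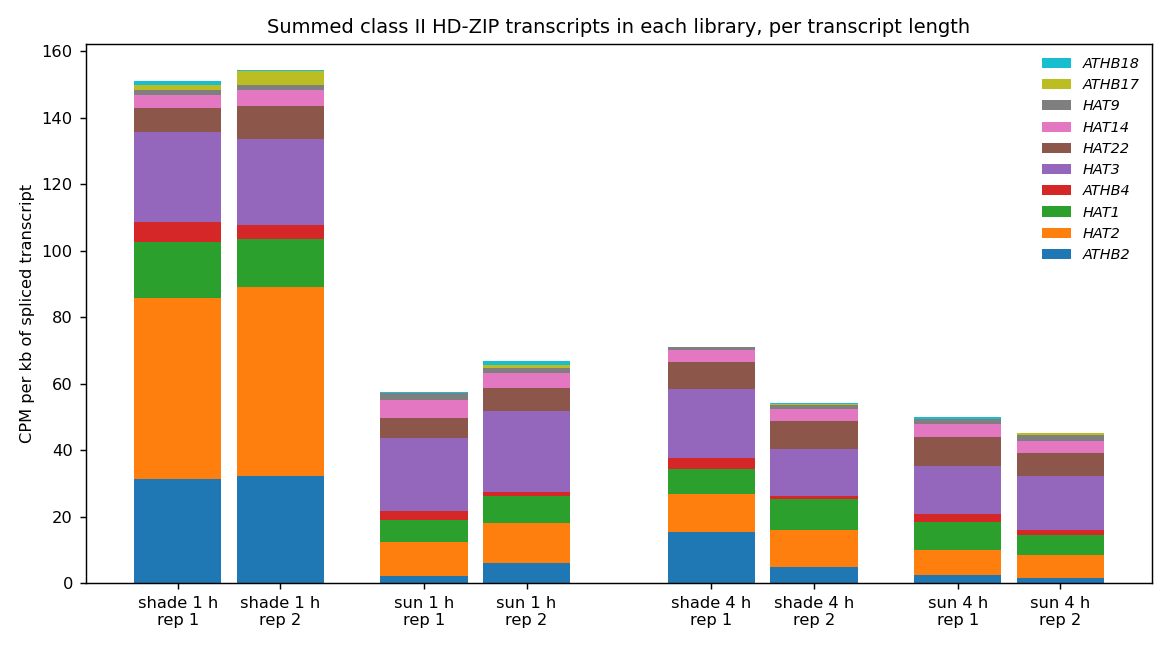
Stacked levels of the 10 members in each of the 8 libraries, in CPM per kb of spliced transcript. Totals were 151 and 155 in 1 h shade and 57.6 and 66.9 in 1 h sun, and most of the added height came from *HAT2* and *ATHB2*.

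Members resemble one another, so it was checked how far reads could be confused. Coding sequences were most alike between *HAT9* and *HAT22* (73.8% of aligned positions identical, gaps counted as different), *HAT1* and *HAT2* (72.2%) and *HAT3* and *ATHB4* (68.0%), and *ATHB2* was nearest to *HAT2* (62.9%). Reads were 40 bases long, and no 40-base window of any member's transcript occurred exactly anywhere else in the genome. Matches with up to 2 mismatches were sought only among the transcripts of the 10 members, and not in the rest of the genome. Of these, 22 of the 1384 windows of *HAT2* (1.59%) matched *HAT1*, and 22 of the 1405 windows of *HAT1* matched *HAT2*. *HAT9* and *HAT22* matched each other in 19 windows (1.49% and 1.36% of their own), and *HAT9* with *HAT14* and *HAT2* with *HAT22* in 2 each. Some of the *HAT1* and *HAT2* windows hold or border the longest exact run that any pair of members shares, 38 bases in the coding sequence of the homeodomain, at chr4:9740550-9740587 (plus strand) in *HAT1* and chr5:19216891-19216928 (minus strand) in *HAT2*, shown since it is the stretch where a short read would be hardest to assign:
shared by HAT1 and HAT2: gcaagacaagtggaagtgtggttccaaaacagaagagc
No annotated gene overlapped any of the 10 members. The aligner's mismatch setting is not given in the sources used here.

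The 1000 bases before each annotated start were searched on both strands for sites that the factors of this response are known to bind. The class II site, searched as CAATNATTG, was present before *ATHB2* (first base 477 before the start) and *HAT1* (738 before) and no other member, and before 3.44% of 27443 protein-coding genes. The G-box CACGTG, bound by PIFs among others, was present before *HAT14* and *ATHB17*, and before 14.8% of all genes. The PIF-binding variant CACATG was present before *HAT1*, *HAT2*, *HAT3* and *HAT22*, 4 of 10 members, and before 37.7% of all genes. The auxin response elements TGTCTC (*HAT2* and *HAT22*) and TGTCGG (*HAT14*) were present before 39.6% and 14.6% of all genes. The outermost matches before *HAT22* border the next gene, which ends 796 bases upstream. A match is a run of letters and not evidence of binding.

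Stretches around the matches are shown for *ATHB2*, *HAT1*, *HAT2*, *HAT3* and *ATHB17*, chosen among the members that were higher in both shade libraries at 1 hour, 5′ to 3′ on the strand of the gene, with the matched letters in capitals. They were read from the TAIR10.1 genome at chr4:9448594-9448693 (*ATHB2*, plus), chr4:9738738-9738837 (*HAT1*, plus), chr5:19218107-19218326 (*HAT2*, minus), chr3:22322882-22322981 (*HAT3*, minus) and chr2:190560-190659 (*ATHB17*, minus):
ATHB2: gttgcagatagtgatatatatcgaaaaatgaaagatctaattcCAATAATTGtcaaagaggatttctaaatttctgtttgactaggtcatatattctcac
HAT1: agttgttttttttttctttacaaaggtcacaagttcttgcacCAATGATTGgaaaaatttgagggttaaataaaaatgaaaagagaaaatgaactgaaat
HAT2: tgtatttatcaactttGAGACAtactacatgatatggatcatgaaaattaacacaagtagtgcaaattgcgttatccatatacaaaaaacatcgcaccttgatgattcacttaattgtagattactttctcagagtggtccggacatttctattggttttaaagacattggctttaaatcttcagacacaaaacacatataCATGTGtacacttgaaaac
HAT3: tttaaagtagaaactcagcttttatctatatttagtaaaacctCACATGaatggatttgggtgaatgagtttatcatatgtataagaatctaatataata
ATHB17: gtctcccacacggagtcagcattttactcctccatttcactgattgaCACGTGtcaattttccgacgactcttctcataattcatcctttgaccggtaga
In *ATHB2* and *HAT1* the capitals are the CAATNATTG match, with A as the middle base in *ATHB2* and G in *HAT1*. In *HAT2* they are TGTCTC read on the opposite strand and, 113 to 118 bases before the start, CACATG read on the opposite strand. *HAT3* carries CACATG on the strand shown, and *ATHB17* the G-box.

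The genes whose level followed *ATHB2* most closely were sought by Pearson's r between log2(CPM + 1) values over the 8 libraries, among 15137 genes that averaged at least 5 CPM. The nearest were *OBP4* (AT5G60850), a DOF-type transcription factor (r = 0.990), AT4G28240 (0.981), AT5G66590 (0.978), AT3G62070 (0.969) and *ST2B* (AT5G07000, 0.968). All genes were read in the same 8 libraries, with the same groups and depths, so r is a description. AT5G66590 was at 43.0 and 48.3 CPM in 1 h shade, against 7.72 and 13.1 CPM in 1 h sun (log2 fold change 2.07, limma adjusted p = 0.00701). AT4G28240 was called at 1 hour as well (1.46, adjusted p = 0.0158), as was *ST2B* (1.73, adjusted p = 0.0200), whereas *OBP4* (0.73, adjusted p = 0.452) and AT3G62070 (1.04, adjusted p = 0.366) were not. Within the class, *HAT2* ranked 51 (r = 0.899) and *HAT1* ranked 88 (0.859), while *HAT3* (0.697), *HAT22* (0.422) and *HAT14* (0.0768) were less like it. Members that averaged under 5 CPM were not ranked, and had r = 0.674 (*ATHB4*), 0.671 (*ATHB17*), 0.269 (*ATHB18*) and -0.464 (*HAT9*) with *ATHB2*. *HAT1* and *HAT2* were the more alike, with r = 0.936 between them.

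Genes that work with the class were read beside it. Of all tested genes 0.472% were called at 1 hour and 0.119% at 4 hours, so 0 calls in lists as short as these is near those shares. Of the class III HD-ZIP genes, which specify the upper leaf side and the meristem, 5 of 5 were tested and 0 were called at 1 or 4 hours. The largest values at 1 hour were 0.43 for *ATHB8* (95% interval -0.001 to 0.85, limma adjusted p = 0.743) and -0.25 for *PHB* (adjusted p = 0.841). At 4 hours all 5 were below 0, between -0.57 and -0.19, where 46.6% of all tested genes had a value above 0. The lowest of them, *ATHB8*, had a limma adjusted p of 0.433. *ATHB8* rose between the sun libraries (log2 fold change 0.82 at 4 h over 1 h, limma adjusted p = 0.0388), a comparison in which 3.58% of all genes were called. Of the ZPR genes, which code for small leucine zipper proteins that block class III dimers, 4 of 4 were tested and 0 were called, with 0.70 for *ZPR4* and -0.74 for *ZPR3* at 1 hour. Of the TPL co-repressor genes, 5 of 5 were tested, 0 were called, and values at 1 hour lay between -0.17 (*TPR3*) and 0.11 (*TPR2*).

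Of 17 class I HD-ZIP genes, many of which are known from water and hormone responses, 10 were tested. None was called at 1 or 4 hours, where 0.472% and 0.119% of all tested genes were called. The median log2 fold change at 1 hour was 0.69 for class II, against 0.06 for class I. The class II median includes *ATHB17* (1.49), which was tested only because of its 1 h shade libraries. *ATHB1* was just short of the threshold at 1 hour (log2 fold change 0.84, limma adjusted p = 0.0507), was at 0.62 at 4 hours (adjusted p = 0.261), and was called for the mean of both responses (0.73, adjusted p = 0.00946). *ATHB13* was at -0.67 at 1 hour (adjusted p = 0.374). In a design of 2 against 2 libraries an exact permutation test cannot give a p below 0.333, so all tests rest on limma's pooling of spread over genes, and replicates of pooled plants measure only the spread between such pools.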

How the data were processed

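Per the labels and the study's methods, mRNA libraries were sequenced as 40-base single reads, mapped with TopHat to TAIR10, and each gene's reads were deposited by the authors as CPM computed with edgeR. The read counter, its use of strand and of reads with several matches, tool versions and the scaling method are not given in the sources used here. All 8 value columns were used (0 were not). Deposited CPM values divided by the step of 1 read in their library gave whole reads for 100% of values (within 0.01 read). At 10 CPM counting error alone is 29.3% in the smallest library and 14.7% to 17.0% in the others. Counting intervals and floors cover counting error only, as reads without molecular identifiers are not independent molecules. The limma intervals of log2 fold changes rest instead on the spread between replicates, pooled over genes. A gene with 3 reads or fewer in each library of a group was treated as at the floor.

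Genes with at least 1 CPM in 2 libraries (19280) were tested as log2(CPM + 1), which understates changes of low genes, with limma 3.58.1 (R 4.3.3; group means, 4 residual and 9.33 prior degrees of freedom, mean-variance trend), tested first on simulated data. Alternatives were pseudocounts of 0.25 and 5, no filter or 5 CPM, median ratio rescaling, only the 4 libraries compared, a replicate block, each library left out, an adjusted p under 0.001, and edgeR 4.0.16 (quasi-likelihood) and DESeq2 1.42.0 on recovered reads. All members are named. From related lists, called genes and the 2 largest changes at 1 hour are named, and for likeness the 5 nearest genes. Members are the whole class, with no condition on measured values, but the class and the related lists were chosen with earlier results of these data known. Sequence steps used Biopython 1.88 with Python 3.11.15 and the TAIR10.1 genome and annotation, joined by locus identifier.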

Additional observations from a re-analysis of the deposited data

How the results depend on the processing

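Depth limits *HAT9*, *ATHB17* and *ATHB18*, which had 1 to 11, 0 to 15 and 0 to 6 reads a library. Of 795 member values under alternatives, 748 kept their sign and side of the threshold, 34 uncalled values changed sign, 6 gained a call and 7 lost one, and no called value changed sign. Members called at 1 hour were 2, and 1 at an adjusted p under 0.001 and with no filter, with 1 to 2 over libraries left out. For the mean response they were 2, and 1 at 0.001 and with no filter, with 1 to 2 over libraries left out. At 4 hours and for the difference they were 0, with 0 to 1 over libraries left out, and for 4 h sun against 1 h sun 0, with 1 in the 4 libraries alone and 0 to 1 over libraries left out. Leaving out a library leaves 1 in its group, which is then assumed to vary like the others. All genes called at 1 hour were 91, and 13 at 0.001, 35 with no filter, 138 with edgeR and 118 with DESeq2, with 15 to 199 over libraries left out. At 4 hours they were 23, and 1 at 0.001, 10 with a pseudocount of 5, 1 with no filter, 1 in the 4 libraries alone, 28 with edgeR and 49 with DESeq2, with 1 to 975 over libraries left out. For the difference they were 2, and 0 at 0.001, 3 with edgeR and 15 with DESeq2, with 0 to 224 over libraries left out. For the mean response they were 121, and 17 at 0.001, 67 with no filter, 141 with edgeR and 154 with DESeq2, with 61 to 845 over libraries left out. For 4 h sun against 1 h sun they were 691, and 45 at 0.001, 312 with no filter, 2180 in the 4 libraries alone, 983 with edgeR and 715 with DESeq2, with 87 to 1781 over libraries left out. The cause of these changes was not tested. A model of 4 libraries gives no difference or mean response, and the 5 CPM filter leaves no value for some members. Leaving out a library in which *ATHB17* or *ATHB18* reached 1 CPM also leaves no value for that gene.

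The labels number the replicates, but same-numbered libraries deviated together only weakly (correlations of -0.0632 to 0.103 over 6 pairs of groups), so the numbers were not taken as pairs. With the replicate block 2, 0, 0, 2 and 0 members were called in these comparisons, and 101 genes at 1 hour, 30 at 4 hours, 1 for the difference, 128 for the mean response and 770 for 4 h sun against 1 h sun.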
